A study of Mus musculus with 6 samples.

Results

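The receptor for leukaemia inhibitory factor (LIF) and the transcription factor STAT3, which acts downstream of it, were described through 8 genes chosen by name: Lifr and Il6st, which encode the receptor's subunits, the kinase gene Jak1, Stat3 itself, and the STAT3 response genes Socs3, Pim1, Pim3 and Bcl3. All 8 were among the 19532 gene rows of the deposited table and all passed the filter on low counts that left 12098 genes for testing. RNA was counted in sorted single cells of R1 and IB10, established lines of mouse embryonic stem cells, with SORT-seq, a plate-based assay that counts 3′ ends of transcripts with unique molecular identifiers (UMIs). Each line gave 1 library in each of 3 cultures, so a condition has 2 libraries, and every culture, the comparison cultures included, received LIF in N2B27 medium without serum, on gelatin and serum-coated plastic without a feeder layer named in the labels.

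In LIF_2i, the naive culture, cells also had 3 µM CHIR99021, which activates WNT signalling by inhibiting GSK3, and 0.1 µM PD325901, which inhibits MEK. In rosette_LIM, cells had 2 µM IWP2, which blocks the secretion of WNT proteins, and 0.1 µM PD325901, over 6 passages in R1 and 5 in IB10. In primed_4d, cells spent 4 days with 2 µM IWP2 together with Activin A at 20 ng/ml and FGF2 at 12 ng/ml, and had no MEK inhibitor. At collection R1 was at passage 24 and IB10 at passage 28 in LIF_2i and primed_4d, and at passages 28 and 33 in rosette_LIM. Since the labels name no separate cultures of a line within a condition, p-values reflect how much these 6 libraries vary and nothing beyond them.

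LIF binds LIFR, which pairs with gp130, the product of Il6st, and JAK kinases bound to the receptor then phosphorylate STAT3. STAT3 enters the nucleus and drives a set of genes that includes its own inhibitor SOCS3, PIM kinases and, in mouse embryonic stem cells, factors of the naive state such as Klf4 and Tfcp2l1. LIF is known for holding mouse embryonic stem cells in self-renewal. The measurements here are RNA levels and hold no measure of STAT3 phosphorylation.

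Between 4614580 and 7688723 UMIs stood behind a library, over 188 wells each, with a median of 11250 to 40976 UMIs per well. The R1 primed_4d library had 84 wells under 6000 UMIs, against 4 to 38 in the other 5, and 2 wells held 12.7% of the R1 LIF_2i library. All 7 markers of pluripotent stem cells were present in every library, with a summed level of 5011 to 5738 CPM (a gene's share of the library's counts, scaled to 1e6). Of 7 feeder fibroblast markers, 2 to 4 had a UMI and their sum was 3.29 to 13.2 CPM, with Col3a1 and Lum at 0 in all 6 libraries. Summed levels over libraries ranged from 5.76 to 15.6 CPM for primitive endoderm markers (5 or 6 of 7 with a UMI), from 16.3 to 32.3 CPM for trophectoderm markers (3 to 5 of 5) and from 4.34 to 28.8 CPM for mesendoderm markers (4 or 5 of 5). Neuroectoderm markers (4 or 5 of 5) were at 94.1 (R1) and 45.7 (IB10) CPM in primed_4d, 36.8 and 38.5 CPM in rosette_LIM, and 18.2 and 12.6 CPM in LIF_2i. The part of these other lists in the results on the 8 genes was not tested.

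In primed_4d, 7 of the 8 genes passed the test as lower than in LIF_2i and lower than in rosette_LIM, and Socs3 passed in neither comparison. DESeq2 called 6 lower in each, and without IB10 LIF_2i edgeR called 4 against LIF_2i (Lifr, Il6st, Pim1 and Bcl3). The median log2 difference of the 8 genes was −0.79 from LIF_2i and −0.78 from rosette_LIM, beside −0.01 and 0.00 over all genes tested. Lower calls were common in these comparisons: edgeR's quasi-likelihood test with Benjamini-Hochberg adjustment, at a threshold of 0.05, called 19.6% of all tested genes lower and 18.3% higher against LIF_2i, and 19.0% lower and 17.1% higher against rosette_LIM. The 8 genes summed to 413 (R1) and 454 (IB10) CPM in LIF_2i, 428 and 466 CPM in rosette_LIM, and 237 and 259 CPM in primed_4d. For 7 genes both primed_4d libraries lay below all 4 others, which was so for 25.8% of all tested genes. The comparisons share libraries, so they are not independent of each other. In whole-library sums, fewer cells that make a transcript and less of it per cell cannot be told apart.

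**Figure D1:**
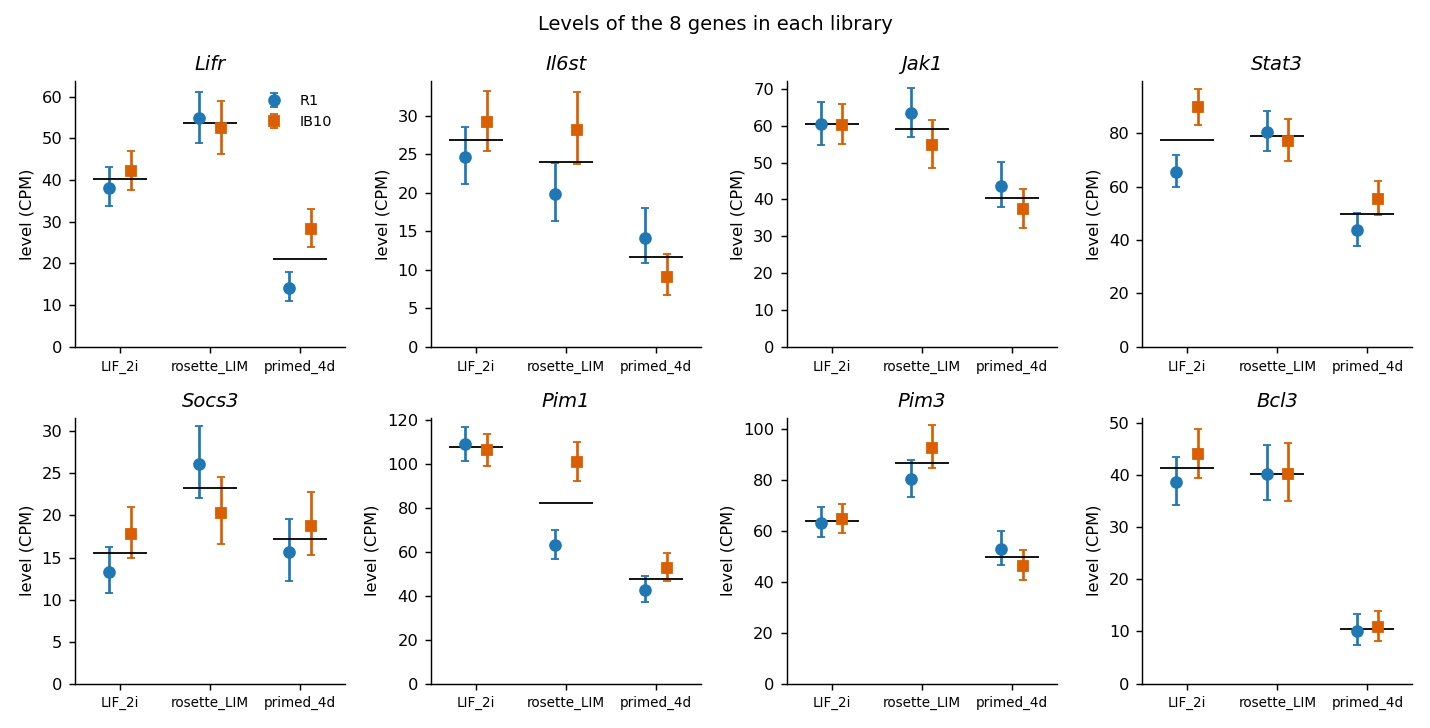
Level (CPM, y axis from 0) of each of the 8 genes in each library by condition (x axis). Circles are R1, squares IB10, bars exact 95% Poisson intervals that cover counting error only, and horizontal lines the mean of the 2 libraries. Bcl3 is at 10.1 and 10.8 CPM in primed_4d and at 38.6 CPM or more in the other 4 libraries.

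The receptor gene Lifr (chr15:7090614-7197489, plus strand, GRCm38, GENCODE annotation M21) was at 38.2 (R1) and 42.1 (IB10) CPM in LIF_2i, 54.8 and 52.4 CPM in rosette_LIM, and 14.1 and 28.2 CPM in primed_4d. The primed_4d libraries were the lowest 2, and the libraries of the other conditions did not overlap each other either. Lifr fell in primed_4d by 0.93 ± 0.21 on the log2 scale (± SE) from LIF_2i (edgeR adjusted p = 0.00286) and by 1.36 ± 0.21 from rosette_LIM (edgeR adjusted p = 0.000165). Its level in rosette_LIM was 0.43 ± 0.19 above LIF_2i, which did not pass the test (edgeR adjusted p = 0.234), but was called without IB10 rosette_LIM (0.68, edgeR adjusted p = 0.0216). The lines differed in primed_4d, where IB10 had 2.00 times the level of R1 (exact 95% interval 1.49 to 2.71, counting error only), while their log2 ratio was 0.14 in LIF_2i and −0.07 in rosette_LIM. With 1 library per line and condition, this difference between lines could not be tested. The fall from LIF_2i was smaller without R1 primed_4d (−0.53, edgeR adjusted p = 0.0630) and its call was also lost without R1 LIF_2i (−0.83, edgeR adjusted p = 0.0715).

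Il6st, whose product gp130 is shared by most receptors of the IL-6 cytokine family (chr13:112464070-112510086, plus strand), was at 24.6 and 29.1 CPM in LIF_2i, 19.8 and 28.1 CPM in rosette_LIM, and 14.1 and 9.10 CPM in primed_4d. The levels of LIF_2i and rosette_LIM overlapped, and those of primed_4d lay under both. Il6st fell by 1.21 ± 0.24 (log2) from LIF_2i and by 1.04 ± 0.25 from rosette_LIM (edgeR adjusted p = 0.00106 and 0.00418). Here R1 was the higher line in primed_4d, and IB10 had 0.644 times its level (exact 95% interval 0.435 to 0.949, counting error only), the opposite order to Lifr. Without IB10 primed_4d the fall from rosette_LIM was −0.56 and lost its call (edgeR adjusted p = 0.126). The difference between rosette_LIM and LIF_2i was −0.17 ± 0.22 (edgeR adjusted p = 0.727).

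Jak1 encodes a kinase bound to gp130 (chr4:101152367-101265282, minus strand). Its level was 60.4 and 60.3 CPM in LIF_2i, 63.3 and 54.7 CPM in rosette_LIM, and 43.6 and 37.3 CPM in primed_4d. Both primed_4d libraries were low, and the other conditions overlapped. Jak1 fell by 0.58 ± 0.14 (log2) from LIF_2i and by 0.54 ± 0.14 from rosette_LIM (edgeR adjusted p = 0.00454 and 0.00793). The call against LIF_2i was lost without IB10 LIF_2i (−0.48, edgeR adjusted p = 0.132), and that against rosette_LIM without IB10 primed_4d (−0.48, edgeR adjusted p = 0.0685) and with DESeq2 (−0.53, DESeq2 adjusted p = 0.0618).

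Stat3 (chr11:100885098-100939540, minus strand) was at 65.5 and 89.7 CPM in LIF_2i, 80.6 and 77.2 CPM in rosette_LIM, and 43.6 and 55.5 CPM in primed_4d. The rosette_LIM libraries lay between the LIF_2i ones, and the primed_4d libraries under all of them. Stat3 fell by 0.64 ± 0.15 (log2) from LIF_2i and by 0.68 ± 0.15 from rosette_LIM (edgeR adjusted p = 0.00336 and 0.00253). Without IB10 LIF_2i, the higher of the LIF_2i libraries, the first of these was −0.48 and lost its call (edgeR adjusted p = 0.145). Stat3 meets Stat5a on the other strand, and Jak1 overlaps Raver2 on the other strand. Jak1 also overlaps Gm12785 on its own strand and Gm24468 on the other. On the other strand, Pim1 overlaps Gm26885, and Bcl3 overlaps Gm16175 and Gm16174. None of these Gm genes is among the deposited gene rows. The sources used here do not say whether strand was used in counting, so reads of such neighbours cannot be told apart.

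**Figure D2:**
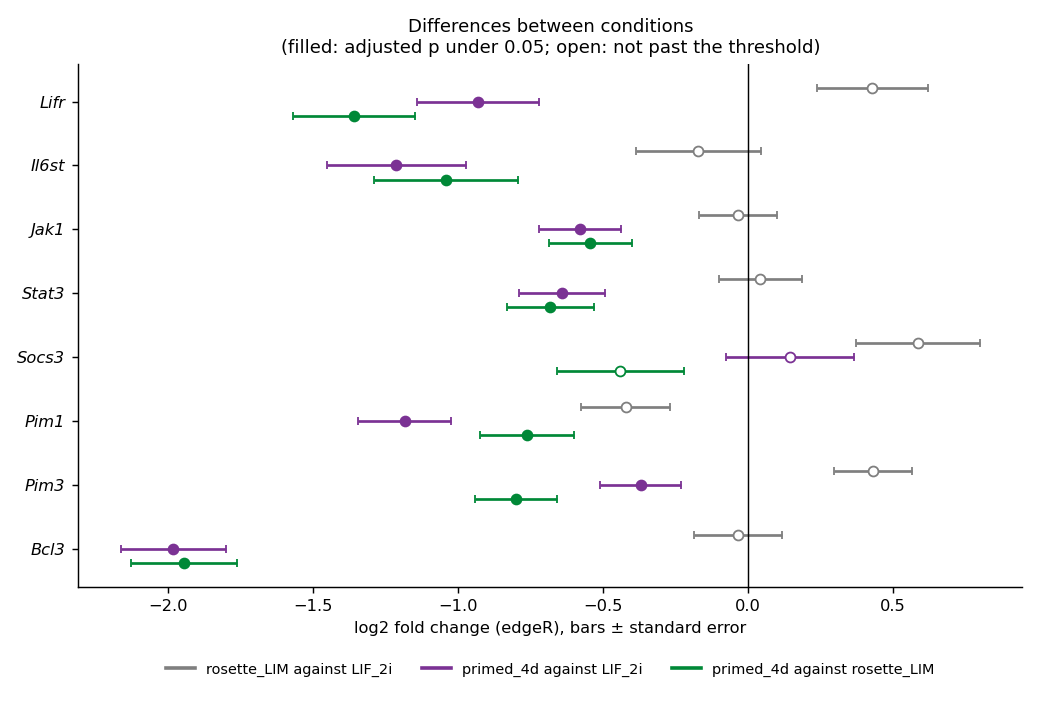
Log2 fold change of each gene (y axis) between conditions (x axis, edgeR, bars ± standard error, 2 libraries per condition). Filled points passed the adjusted threshold of 0.05: 7 genes in each comparison of primed_4d and none between rosette_LIM and LIF_2i.

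Among the response genes, Socs3, the feedback inhibitor that binds gp130 and JAKs (chr11:117966079-117970047, minus strand), did not pass the test in any comparison of conditions. It was at 13.3 and 17.8 CPM in LIF_2i, 26.1 and 20.3 CPM in rosette_LIM, and 15.6 and 18.8 CPM in primed_4d. Both rosette_LIM libraries were above the other 4, and the LIF_2i and primed_4d libraries overlapped. The difference of primed_4d from LIF_2i was 0.14 ± 0.22 on the log2 scale (edgeR adjusted p = 0.641), and rosette_LIM was 0.59 ± 0.21 above LIF_2i (edgeR adjusted p = 0.135). The difference of primed_4d from rosette_LIM was −0.44 ± 0.22 (edgeR adjusted p = 0.133). Without IB10 rosette_LIM, both differences from rosette_LIM were called, at 0.92 against LIF_2i and −0.77 for primed_4d (edgeR adjusted p = 0.0136 and 0.0166). Counts of Socs3 were low, at 73 to 150 per library. Some of the genes called lower in primed_4d had fewer there: Bcl3 47 (R1) and 57 (IB10), Il6st 66 and 48, and Lifr 66 in R1 (149 in IB10).

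STAT factors bind DNA at inverted repeats, and the pattern TTCNNNGAA, which reads the same on both strands, was searched in the 250 bases before each RefSeq start site (GRCm38.p6). It was found for 1 of the 8 genes, Socs3, and for 8.13% of all 27025 genes with a window. By windows, it was in 1 of 10 of the 8 genes and in 7.02% of all 32851. In the Socs3 window it lay at chr11:117969512-117969520, from base −154 to base −146. The Bcl3 window is shown beside it because Bcl3 had the largest difference between conditions. Each sequence runs 5′ to 3′ on the minus strand, capitals mark the match, and bases in exons of the same gene were left out. The Socs3 stretch is chr11:117969452-117969616, which lies in an intron of a longer non-coding transcript of the gene, and the Bcl3 stretch is chr7:19822771-19823005.
Socs3: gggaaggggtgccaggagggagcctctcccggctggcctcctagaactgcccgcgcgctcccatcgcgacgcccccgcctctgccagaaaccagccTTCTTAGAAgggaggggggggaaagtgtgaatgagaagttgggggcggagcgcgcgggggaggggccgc
Bcl3: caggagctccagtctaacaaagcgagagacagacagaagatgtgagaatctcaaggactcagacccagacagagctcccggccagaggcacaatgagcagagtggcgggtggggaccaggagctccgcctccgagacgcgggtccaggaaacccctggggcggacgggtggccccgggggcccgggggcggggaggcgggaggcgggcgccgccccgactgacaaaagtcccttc
The Bcl3 stretch holds no match. A match describes these letters only, and binding of STAT3 was not measured.

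Pim1, a kinase gene that supports survival and growth (chr17:29490753-29496112, plus strand), was at 109.0 and 106.1 CPM in LIF_2i, 63.2 and 100.8 CPM in rosette_LIM, and 42.8 and 52.7 CPM in primed_4d. The rosette_LIM libraries were far apart, with R1 low and IB10 near the LIF_2i level. Pim1 fell by 1.19 ± 0.16 (log2) from LIF_2i and by 0.76 ± 0.16 from rosette_LIM (edgeR adjusted p = 4.13e-05 and 0.00209), and both calls held under every alternative run. Rosette_LIM was at −0.42 ± 0.15 of LIF_2i (edgeR adjusted p = 0.134), with a within-line log2 ratio of −0.79 in R1 and −0.07 in IB10. Without IB10 rosette_LIM that difference was −0.73 and was called (edgeR adjusted p = 0.00123).

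Pim3, its paralogue (chr15:88862186-88865726, plus strand), had 63.2 and 64.8 CPM in LIF_2i, 80.2 and 92.6 CPM in rosette_LIM, and 52.8 and 46.2 CPM in primed_4d. The 3 conditions did not overlap, with rosette_LIM highest. Pim3 fell in primed_4d by 0.80 ± 0.14 (log2) from rosette_LIM (edgeR adjusted p = 0.000462) and by 0.37 ± 0.14 from LIF_2i, where the adjusted p of 0.0499 from edgeR lay just under the threshold. The latter call was lost with DESeq2 (DESeq2 adjusted p = 0.224), with RLE factors (0.0579), without the replicate block (0.0654), with wells weighted equally (limma, 0.119) and without any of R1 LIF_2i, IB10 LIF_2i or IB10 primed_4d (edgeR adjusted p of 0.258, 0.256 and 0.411). Rosette_LIM was 0.43 ± 0.13 above LIF_2i and missed the threshold (edgeR adjusted p = 0.0796), but passed it without R1 rosette_LIM (0.56, edgeR adjusted p = 0.0222) and without R1 primed_4d (0.43, edgeR adjusted p = 0.0469).

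Bcl3, which encodes an IκB-like partner of NF-κB p50 and p52 (chr7:19808462-19822770, minus strand), showed the largest difference of the 8. It was at 38.6 and 44.0 CPM in LIF_2i, 40.2 and 40.2 CPM in rosette_LIM, and 10.1 and 10.8 CPM in primed_4d. The primed_4d libraries stood far below the other 4, which overlapped by condition. Bcl3 was 3.95-fold lower than in LIF_2i (log2 −1.98 ± 0.18, edgeR adjusted p = 9.08e-07) and 3.86-fold lower than in rosette_LIM (−1.95 ± 0.18, edgeR adjusted p = 1.44e-06), and both calls held under every alternative run. Within R1 the log2 ratio to LIF_2i was −1.94, and within IB10 it was −2.03. Against LIF_2i, rosette_LIM was at −0.04 ± 0.15 (edgeR adjusted p = 0.935).

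None of the 8 genes passed the test between rosette_LIM and LIF_2i, where edgeR called 5.54% of all genes. At an unadjusted p under 0.05 there were 4 in edgeR, namely Lifr, Socs3, Pim1 and Pim3, beside 2381 of all 12098 genes tested. DESeq2 called 0 of the 8 genes, with 2 at an unadjusted p under 0.05. The median of the 8 genes was 0.00, as over all genes tested. With no rescaling of the libraries, which moved the median of all genes to −0.44, Il6st (−0.63) and Pim1 (−0.88) were called lower in rosette_LIM (edgeR adjusted p = 0.0408 and 0.00103). Between the lines, IB10 against R1 over all conditions, edgeR called 0 of the 8 genes and 0.752% of all genes. At an unadjusted p under 0.05 there was 1 in edgeR, Pim1 (0.30 ± 0.13, edgeR adjusted p = 0.405), beside 1292 of all 12098 genes tested. DESeq2 had 0 of the 8 genes at that level and also called 0.

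To describe single wells, each well was thinned to 5000 UMIs, which left 104 wells in R1 primed_4d and 151 to 184 in the other libraries. Bcl3 then had a UMI in 19.9% (R1) and 20.1% (IB10) of LIF_2i wells, 14.5% and 21.2% of rosette_LIM wells, and 6.73% and 5.17% of primed_4d wells. The exact 95% binomial intervals, which cover counting error only, ran from 2.75% to 13.4% and from 2.39% to 9.59% in primed_4d. At this depth the R1 primed_4d interval overlapped that of R1 rosette_LIM, which ran from 9.71% to 20.6%. At 10000 UMIs these intervals were apart, from 3.59% to 15.5% in R1 primed_4d and from 24.5% to 38.9% in R1 rosette_LIM. Without thinning, Bcl3 was seen in 60.1% and 73.4% of LIF_2i wells, 63.8% and 51.1% of rosette_LIM wells, and 14.9% and 20.2% of primed_4d wells. Il6st was seen at 5000 UMIs in 5.77% and 5.75% of primed_4d wells, against 13.04% to 14.3% in the other 4 libraries. Its primed_4d intervals, 2.15% to 12.1% in R1 and 2.79% to 10.3% in IB10, overlapped those of the other 4 libraries. Without thinning, Il6st was seen in 21.8% and 22.9% of primed_4d wells, against 41.0% to 61.7%. Socs3 was in 4.97% and 8.70% of LIF_2i, 12.3% and 8.61% of rosette_LIM, and 4.81% and 9.20% of primed_4d wells, so its conditions overlapped. For Stat3 at 5000 UMIs the IB10 primed_4d share of 31.0% lay inside the range of the LIF_2i and rosette_LIM libraries, 27.3% to 34.1%. The R1 primed_4d share was 22.1%. At 3000 UMIs the IB10 share was 24.9%, inside 18.5% to 27.0%. At 10000 UMIs the primed_4d shares, 37.8% (R1) and 36.3% (IB10), lay below the other 4 libraries, at 46.3% to 58.2%. Without thinning, Stat3 was seen in 43.1% and 66.5% of primed_4d wells, against 69.1% to 89.9%. Wells without a UMI of any of the 8 genes at 5000 UMIs made up 27.9% and 23.6% in primed_4d, against 7.82% to 12.0% in the other libraries.

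**Figure D3:**
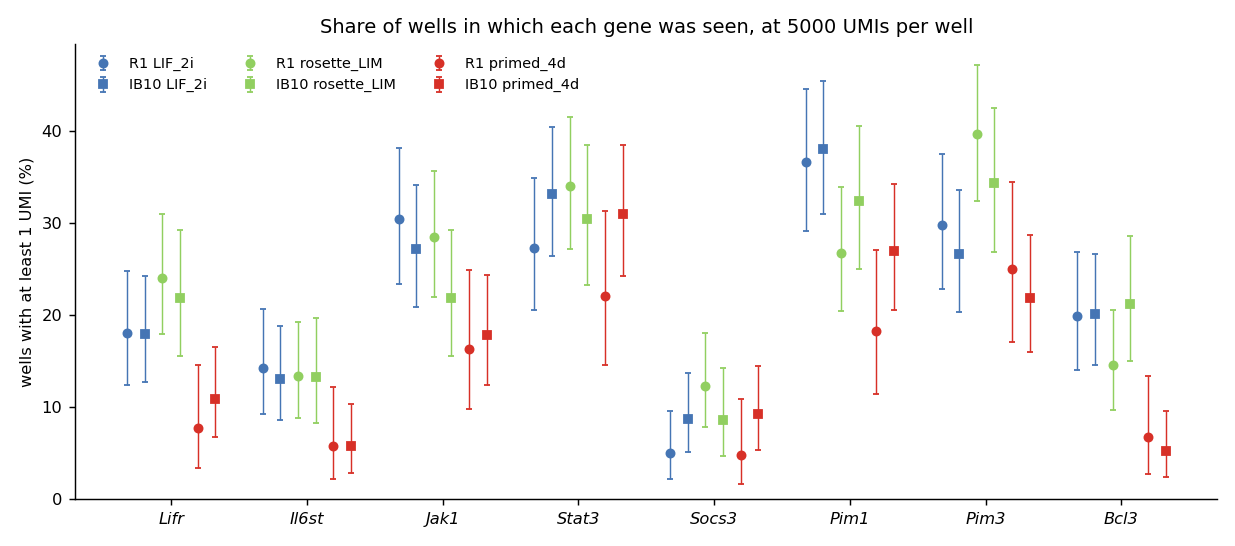
Share of wells with at least 1 UMI (y axis, %) for each gene (x axis) after thinning to 5000 UMIs per well. Colours are conditions, circles R1, squares IB10, and bars exact 95% binomial intervals. Bcl3 is at 6.73% and 5.17% in primed_4d, and the Socs3 shares overlap between conditions.

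The spread of the 8 genes between wells depended on the depth. At 5000 UMIs a well held 0.0481 to 0.497 UMIs of a gene in the mean, which leaves the Fano factor, the variance over the mean, little range. It was 1.02 in the median of 48 values (8 genes in 6 libraries), and ran from 0.863 for Il6st in R1 LIF_2i to 1.65 for Socs3 in IB10 primed_4d. Genes of like level had medians of 0.932 to 1.05 in the same libraries. At 10000 UMIs the median of the 8 genes was 1.17, above the like-level medians of 1.03 to 1.10. The highest values there were 1.88 for Socs3 and 1.78 for Pim1, both in R1 LIF_2i. Whether a subset of cells responds was not tested.

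The rest of the pathway moved in both directions, as did all genes tested. Of 76 other genes listed by role, 75 were in the table and 68 passed the filter. Against LIF_2i, primed_4d had 14 of the 68 higher and 23 lower (median −0.21), and against rosette_LIM 16 higher and 23 lower (median −0.07), beside the shares over all genes given above. Rosette_LIM had 1 higher than LIF_2i, Stat4 (1.44 ± 0.32), and 4 lower, Il6ra, Akt2 (−0.63 ± 0.13), Tfcp2l1 (−1.05 ± 0.14) and Smad7 (−0.70 ± 0.13), with edgeR adjusted p of 0.0170, 0.0306, 0.0121, 0.000383 and 0.00669. Without IB10 LIF_2i all 5 calls were lost (edgeR adjusted p of 0.191, 0.574, 0.172, 0.0636 and 0.318), and without R1 LIF_2i all but that for Tfcp2l1 were lost (0.296, 0.137, 0.326 and 0.0738). Without IB10 rosette_LIM the call for Stat4 was lost too (0.206), as it was without the replicate block (0.0825). DESeq2 called neither Stat4 nor Akt2 (DESeq2 adjusted p of 0.131 and 0.0691).

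Among ligands and other receptors, 5 of 11 genes passed the filter, and 1 was higher and 2 lower in primed_4d than in LIF_2i. Over all genes tested, 18.3% were higher and 19.6% lower. Cntfr, the receptor subunit for ciliary neurotrophic factor, which signals through LIFR and gp130, was at 0.715 and 2.05 CPM in LIF_2i, 2.26 and 2.93 CPM in rosette_LIM, and 29.5 and 28.4 CPM in primed_4d. It rose 20.5-fold over LIF_2i (log2 4.36 ± 0.34, edgeR adjusted p = 1.82e-07), and the primed_4d libraries stood above all others. Il6ra, the IL-6 receptor subunit, went the other way, with 7.58 and 9.49 CPM in LIF_2i, 3.65 and 2.15 CPM in rosette_LIM, and 0.856 and 0.379 CPM in primed_4d. It fell by 3.78 ± 0.53 (log2) in primed_4d and by 1.56 ± 0.39 in rosette_LIM from LIF_2i (edgeR adjusted p = 5.41e-05 and 0.0306). The primed_4d level rests on few counts of Il6ra, 4 in R1 and 2 in IB10. The rosette_LIM call for Il6ra was also lost with DESeq2 (DESeq2 adjusted p = 0.293), without IB10 rosette_LIM (edgeR adjusted p = 0.202) and without the replicate block (edgeR adjusted p = 0.0693). Cntf and Clcf1, which encode ligands of the CNTF receptor, had no UMI in any library, and Osmr, the oncostatin M receptor gene, had 0 to 2 counts. Lif itself was at 4.86 (R1) and 4.10 (IB10) CPM in LIF_2i, 6.09 and 6.06 CPM in rosette_LIM, and 2.78 and 1.52 CPM in primed_4d. In primed_4d it was lower than in rosette_LIM (−1.51 ± 0.42, edgeR adjusted p = 0.0112), a call lost with DESeq2 (adjusted p = 0.103). Osm, the oncostatin M gene, fell in primed_4d by 2.87 ± 0.69 from LIF_2i (edgeR adjusted p = 0.00422). DESeq2 did not call it (adjusted p = 0.0532), and Osm had 3 counts in R1 primed_4d and 1 in IB10 primed_4d.

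**Figure D4:**
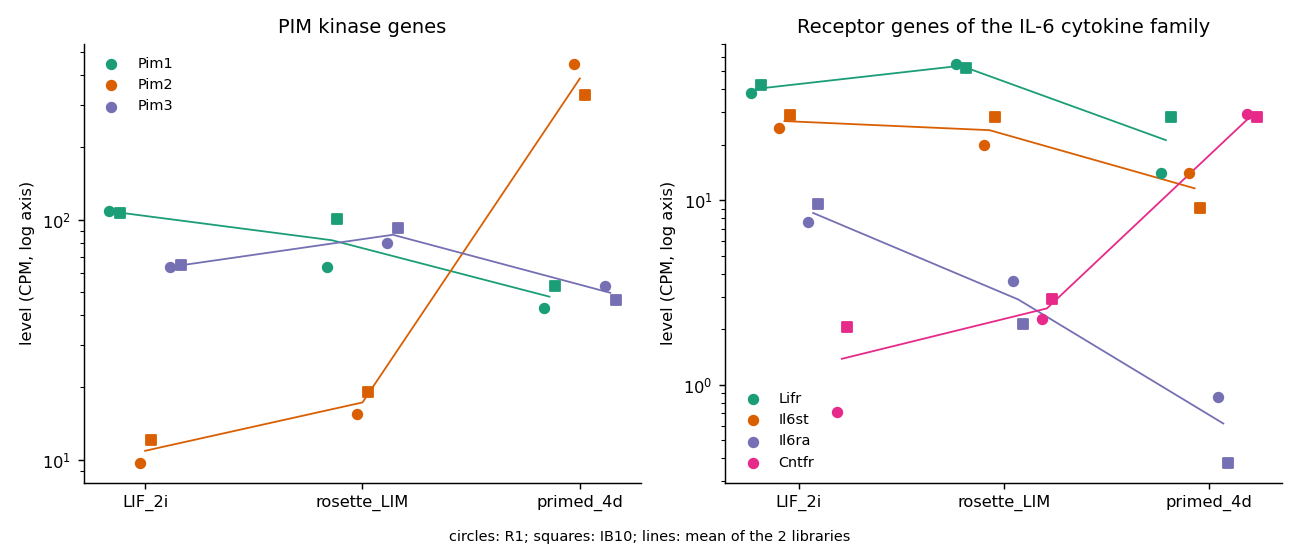
Levels (CPM, log y axis) of the PIM kinase genes (left) and of receptor genes of the IL-6 cytokine family (right) by condition (x axis). Circles are R1, squares IB10, and lines join the means of the 2 libraries. Pim2 is at 445 and 329 CPM in primed_4d and under 20 CPM elsewhere, and Cntfr is at 29.5 and 28.4 CPM in primed_4d.

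Of 9 further JAK and STAT genes, 4 were lower and 0 higher in primed_4d than in LIF_2i (median −0.82). All genes tested had 19.6% lower and 18.3% higher. At an unadjusted p under 0.05 there were 7 in edgeR, beside 5629 of all 12098 genes tested. Stat2, which acts in interferon signalling, was at 26.2 and 27.2 CPM in LIF_2i, 31.5 and 30.9 CPM in rosette_LIM, and 8.77 and 12.1 CPM in primed_4d. It fell by 1.35 ± 0.20 (log2) from LIF_2i (edgeR adjusted p = 9.93e-05). Jak2 (−0.99 ± 0.31), Jak3 (−0.82 ± 0.21) and Tyk2 (−0.72 ± 0.23), kinase genes of the same family, were also lower by edgeR (adjusted p of 0.0200, 0.00742 and 0.0222), but not by DESeq2 (adjusted p of 0.146, 0.100 and 0.183). All 3 of these calls were also lost without R1 LIF_2i (edgeR adjusted p of 0.0618, 0.131 and 0.265). The calls for Jak2 and Tyk2 were lost without IB10 LIF_2i (0.226 and 0.0572), those for Jak2 and Jak3 without R1 primed_4d (0.145 and 0.0986), and that for Tyk2 without IB10 primed_4d (0.153).

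Negative regulators were mixed, with 1 of 14 tested genes of the SOCS, PIAS and phosphatase list higher and 4 lower in primed_4d than in LIF_2i (median −0.08). The shares over all genes tested were 18.3% higher and 19.6% lower. Pias2, of the family of SUMO ligases that includes the STAT3 inhibitor PIAS3, fell by 0.79 ± 0.12 on the log2 scale (edgeR adjusted p = 9.39e-05), from 263 and 270 CPM to 139 and 170 CPM. Pias3 itself fell by 0.74 ± 0.20 (edgeR adjusted p = 0.00824), a call that was lost with DESeq2 (DESeq2 adjusted p = 0.0883). The call for Pias3 was also lost without R1 LIF_2i (−0.67), without IB10 LIF_2i (−0.84) and without R1 primed_4d (−0.58). Socs2, a feedback inhibitor of growth hormone signalling, was higher by 0.61 ± 0.12 (edgeR adjusted p = 0.00124), at 165 and 185 CPM against 95.4 and 136 CPM. That call was lost without R1 LIF_2i (0.45, edgeR adjusted p = 0.106) and with no rescaling of the libraries (0.04, edgeR adjusted p = 0.881).

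In the adaptor, ERK and PI3K list, 4 of 17 genes were higher and 3 lower in primed_4d than in LIF_2i (median −0.02). These counts stand beside 18.3% higher and 19.6% lower over all genes tested. The adaptor gene Grb2, which links receptors to the ERK pathway, was at 123 and 128 CPM in LIF_2i, 124 and 118 CPM in rosette_LIM, and 72.5 and 70.5 CPM in primed_4d. The primed_4d libraries were the lowest, and Grb2 fell by 0.82 ± 0.12 (log2) from LIF_2i (edgeR adjusted p = 9.08e-05). Mapk3, which encodes the kinase ERK1, rose by 0.95 ± 0.14 (edgeR adjusted p = 9.04e-05), a call that was lost with no rescaling of the libraries (0.38, edgeR adjusted p = 0.104). Its level was 36.0 (R1) and 56.9 (IB10) CPM in LIF_2i, 34.6 and 62.9 CPM in rosette_LIM, and 75.1 and 102.7 CPM in primed_4d. Of the 68 genes, Mapk3 was the 1 called between the lines, higher in IB10 (0.65 ± 0.12, edgeR adjusted p = 0.0170). That call was lost without R1 LIF_2i (0.65) and without IB10 LIF_2i (0.65).

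**Figure D5:**
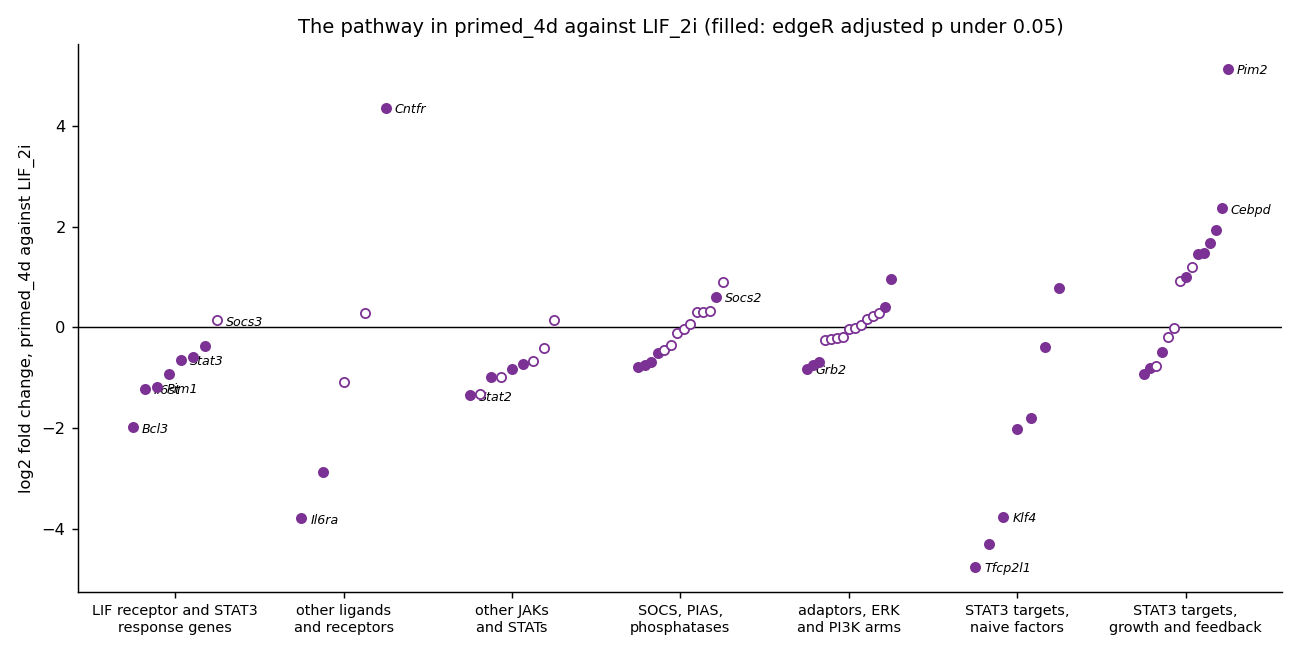
Log2 fold change of primed_4d against LIF_2i (y axis) for the 8 genes and 65 of the 68 tested genes of 6 pathway lists (x axis), ordered by size within a list. Filled points passed the edgeR threshold. Pramel7 is left out because it had no UMI in primed_4d, and 2 genes are not reported. Pim2 at 5.13 and Bcl3 at −1.98 lie on opposite sides of 0.

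STAT3 targets moved in both directions. Of 8 naive factors, 7 were lower and 1 higher in primed_4d than in LIF_2i, with a median of −2.89 (−2.66 with Pramel7 at its bound). Among all genes tested, 19.6% were lower and 18.3% higher. Tbx3, a T-box factor of the naive state, was at 183 and 214 CPM in LIF_2i, 198 and 152 CPM in rosette_LIM, and 12.0 and 8.53 CPM in primed_4d. It was 19.5-fold lower in primed_4d than in LIF_2i (edgeR adjusted p = 8.15e-10). Tfcp2l1 and Klf4, factors of the naive network, were at 14.4 to 23.9 CPM in the primed_4d libraries, against 193 CPM or more in the other 4. Pramel7 had 44 counts in LIF_2i, 53 in rosette_LIM and 0 in primed_4d, which was at least 9.87-fold lower than LIF_2i (against 3 counts over the group). The gene that rose was Gbx2, named after its values were seen, at 18.8 (R1) and 60.1 (IB10) CPM in primed_4d against 21.7 and 20.3 CPM in LIF_2i (0.79 ± 0.29, edgeR adjusted p = 0.0421). R1 alone was lower than in LIF_2i: without IB10 primed_4d the difference was −0.08 (edgeR adjusted p = 0.865), and without IB10 LIF_2i it was 0.11 (edgeR adjusted p = 0.853). DESeq2 did not call Gbx2 (0.74, DESeq2 adjusted p = 0.158), nor did the fit without the replicate block (0.92, edgeR adjusted p = 0.0976). The call was also lost with no rescaling of the libraries (0.22, edgeR adjusted p = 0.459). Nor was Gbx2 called by limma on log2(CPM + 5) (0.60, limma adjusted p = 0.0885) or with wells weighted equally (0.64, limma adjusted p = 0.0743).

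Of 15 STAT3 targets tied to growth and feedback, 7 were higher and 3 lower in primed_4d than in LIF_2i (median 1.00). The all-gene shares were 18.3% higher and 19.6% lower. Pim2, the third PIM kinase gene, was at 9.73 and 12.1 CPM in LIF_2i, 15.5 and 19.1 CPM in rosette_LIM, and 445 and 329 CPM in primed_4d. It rose 35.1-fold over LIF_2i (log2 5.13 ± 0.19, edgeR adjusted p = 1.46e-10) and 22.3-fold over rosette_LIM (4.48 ± 0.18, edgeR adjusted p = 5.66e-10), while Pim1 and Pim3 fell. Summed over the PIM genes, the level was 182 (R1) and 183 (IB10) CPM in LIF_2i, 159 and 213 CPM in rosette_LIM, and 540 and 428 CPM in primed_4d. Cebpb and Cebpd, genes of C/EBP factors, rose by 1.67 ± 0.18 and 2.36 ± 0.34 (log2, edgeR adjusted p = 5.03e-06 and 8.25e-05). Zfp36, which encodes an mRNA decay factor, rose by 1.94 ± 0.31 (edgeR adjusted p = 0.000170). Myc, a growth regulator, was at 15.0 and 18.5 CPM in LIF_2i, 10.96 and 9.38 CPM in rosette_LIM, and 41.3 and 52.7 CPM in primed_4d, 4.56-fold over rosette_LIM (log2 2.19 ± 0.20, edgeR adjusted p = 1.05e-06).

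Genes whose levels over the 6 libraries were most like each of the 8 were ranked by the Euclidean distance of centred log2 CPM among 6275 genes of at least 20 CPM in the mean (6276 for Socs3). For Bcl3 these were Sox15 (0.15), 1700061G19Rik (0.16) and Ulk1 (0.21). For Lifr they were Zfp229, Tex14 and Kdm3a (0.28 to 0.36), and for Il6st Sept9, Wdr1 and Rcn1 (0.24 to 0.40). Jak1 had Prkag1, Gtf2f1 and Def6 (0.09 to 0.13), and Stat3 had Slc7a1, Nfe2l2 and Bet1l (0.19 to 0.22). Socs3 was nearest to Rap2a, Dcxr and Slc39a6 (0.17 to 0.23). Pim1 was nearest to Impa2, Tbc1d10b and Mad2l2 (0.28 to 0.38), and Pim3 to Wbp1, Arf2 and Samhd1 (0.03 to 0.18). None of these genes is in a pathway list.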

How the data were processed

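SORT-seq counts of 6 libraries, 1 per cell line (R1, IB10) and condition, were used. The authors deposited an expected count per gene and well, made from UMIs. BWA and mm10/GRCm38 come from the submitters' processing notes. The sources used here give no version, annotation or strand setting. The 1297 distinct values all match whole UMI numbers corrected for collisions among 4096 UMIs (to within rounding, 0 off), and library totals were not equalised. The 91 spike-in rows (1.75% of counts) were left out. Counting limits precision: totals ran from 4614580 to 7688723 UMIs per library.

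Counts were summed over the wells of a library and rounded. edgeR 4.0.16 (R 4.3.3) took TMM scaling and genes kept by filterByExpr (minimum count 10), with condition and cell line as terms over all 6 libraries, and Benjamini-Hochberg adjustment over 12098 genes, two-sided. Cell line is the replicate block, since the labels give the same lines in each condition; line differences correlated across genes by 0.137, 0.178 and 0.0812 between pairs of conditions. No exact permutation test was run, because groups of 2 cannot pass the threshold. CPM use TMM library sizes, and SE derive from edgeR's test. Wells were thinned to 5000 UMIs for shares (exact Clopper-Pearson intervals) and Fano factors. The edgeR script was tested on simulated data. Alternatives were DESeq2 1.42.0, limma 3.58.1 on log2(CPM + 5), other scaling, filters, well sets and leaving out each library.

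The 8 genes and the 6 pathway lists were chosen with earlier results of these data known, and Hras, of the lists, was not matched. Of other pathway genes, at most the 4 largest calls per list and comparison are named, and Gbx2 was named besides. Results of 2 genes of the adaptor, ERK and PI3K list are counted but not reported here. Promoter sequences are RefSeq windows on GRCm38.p6, matched for all 8 genes by symbol. Protein sequences were not used here.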

Additional observations from a re-analysis of the deposited data

Results flagged for a closer look

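Between rosette_LIM and LIF_2i, 3 of the 8 genes had log2 ratios of opposite sign in the lines. None of the 3 passed the test between these conditions, and with 1 library per line and condition the difference between lines was not tested. For Jak1 and Bcl3 the counting intervals of the conditions overlapped within each line. Stat3, the transcription factor gene, had a log2 ratio of 0.30 in R1 and −0.22 in IB10. Jak1 had 0.069 in R1 and −0.14 in IB10. Bcl3 had 0.058 in R1 and −0.13 in IB10. For Stat3 the LIF_2i libraries were further apart (65.5 and 89.7 CPM) than the rosette_LIM libraries (80.6 and 77.2 CPM).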

How the results depend on the processing

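Limits: each condition has 2 libraries, 1 per line, so leaving out a library leaves a lone one that is assumed to vary like the others, and the R1 primed_4d library was shallow per well.

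In primed_4d the number of the 8 genes called lower than LIF_2i was 7 and ran from 4 to 7 as each library was left out; against rosette_LIM it was 7 and ran from 5 to 8. Pim1 and Bcl3 kept their calls in both under all alternatives run. Between rosette_LIM and LIF_2i the number was 0, became 2 with no rescaling of the libraries and 1 with no filter on low counts, and ran from 0 to 3 leaving out a library. Over all genes, rosette_LIM against LIF_2i had 670 calls (386 higher, 284 lower), 271 with DESeq2, 3232 with no rescaling (149 higher, 3083 lower), 1049 with no filter, 281 with no replicate block, and 63 to 958 leaving out a library. Primed_4d against LIF_2i had 4581 calls (2212 higher, 2369 lower), 2656 with DESeq2, 7036 with no rescaling (861 higher, 6175 lower, the median of all genes moving to −0.58), and 2317 to 5454 leaving out a library. Primed_4d against rosette_LIM had 4372, and 2607 with DESeq2. IB10 against R1 had 91, 47 with DESeq2, 328 with no filter, 45 with wells weighted equally (limma), and 0 to 379 leaving out a library. The cause of these changes was not tested. In the paired design, dropping the replicate block ended the Pim3 call against LIF_2i (−0.37, edgeR adjusted p = 0.0654) and no other call among the 8.

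Some differences of the 8 genes that had not passed the test changed sign, and none passed it under a setting that changed its sign. For rosette_LIM against LIF_2i, no rescaling gave Lifr −0.0024, Stat3 −0.39 and Pim3 −0.017, and leaving out a library gave Il6st −0.49 to 0.096, Jak1 −0.15 to 0.071, Stat3 −0.20 to 0.26 and Bcl3 −0.12 to 0.038. For primed_4d against LIF_2i, Socs3 was −0.43 with no rescaling and −0.082 to 0.40 leaving out a library. For IB10 against R1, Il6st was −0.029 with wells weighted equally, and leaving out a library gave Il6st −0.073 to 0.37, Socs3 −0.068 to 0.35 and Pim3 −0.066 to 0.12. The cause was not tested.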
